A study of Rattus norvegicus with 19 samples.

Results

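Within 19 cultures of rat embryonic ventral spinal cord, 11 had more than 100 FPKM (fragments per kilobase of transcript, scaled to the fragments of the library) of Mbp, which codes for myelin basic protein, a structural protein of myelin. These 11 libraries were chosen by their Mbp level and divided by the same gene. Those above 250 FPKM form an upper class of 6 libraries, and those between 100 and 250 FPKM a lower class of 5. The other 8 libraries lay below 10 FPKM. Mbp chose the classes, and every other gene was measured in the same libraries, so all differences between the classes are given as a description, with no test and no p-value. Mbp read 292, 333 and 372 FPKM (lowest, median, highest) in the upper class. In the lower class it read 171 in control replicate 1, 216 and 212 in polyP replicates 1 and 2, and 169 and 177 in mutSOD1-ACM replicates 1 and 2. The library nearest to the threshold from above was wtSOD1-ACM replicate 1 at 292 FPKM, and the nearest from below was polyP replicate 1 at 216 FPKM. In the 8 other libraries Mbp ran from 6.54 to 9.62 FPKM.

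All cultures came from wild-type Sprague-Dawley embryos at embryonic day 14 and grew in medium with horse serum and chick leg extract. The study asked which transcripts polyphosphate and medium from mutant astrocytes induce in common. Cultures were left untreated (control), received long-chain polyphosphate (polyP, a linear polymer of phosphate) at 100 μM, or received astrocyte-conditioned medium (ACM) for 90 min, as with polyP. The medium was taken from spinal cord astrocytes of newborn mice with a human SOD1 transgene, either the wild-type enzyme (wtSOD1-ACM) or the enzyme with G93A (mutSOD1-ACM), a variant that causes a familial form of amyotrophic lateral sclerosis, so it is the astrocytes and not the sequenced cultures that carry the transgene. The labels give the age at sampling as 7 days in vitro in one field and 4 days in the treatment protocol, and the time kept in culture as 7 to 9 days. They state that the RNA of a condition came from separate cultures, and name neither the preparation nor the number of embryos behind a library.

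Treatments are spread unequally over the classes. The upper class holds control replicates 2 and 3, polyP replicate 3, wtSOD1-ACM replicates 1 and 2 and mutSOD1-ACM replicate 3. The lower class holds control replicate 1, polyP replicates 1 and 2 and mutSOD1-ACM replicates 1 and 2, and no wtSOD1-ACM library. A plain comparison of the classes therefore sets 2 controls of 6 against 1 of 5, and 1 polyP library of 6 against 2 of 5. For 3 treatments both classes are present, and for the main lists the median difference within control, polyP and mutSOD1-ACM, in that order, is given beside the pooled one.

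Mixed spinal cord cultures hold neurons, astrocytes, oligodendrocyte lineage cells and whatever other cells the dissection carried along. Microglia are the resident macrophages of the central nervous system. They arise from yolk sac progenitors rather than from neuroectoderm, depend on signalling through the receptor Csf1r, and read neuronal fractalkine through Cx3cr1. Oligodendrocytes make central myelin and arise from precursors that carry Pdgfra and Cspg4, while Schwann cells arise from the neural crest and make peripheral myelin. In bulk RNA, fewer cells of a type and less RNA per cell cannot be told apart.

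By the measures the values allow, the classes overlapped in relative depth, summed FPKM and ribosomal RNA but not in the number of genes detected. Summed FPKM ran from 446366 to 483794 in the upper class and from 475069 to 503723 in the lower class. Relative depth, read from genes with single fragments, ran from 0.934 to 1.35 in the upper class and from 0.991 to 1.26 in the lower class, and absolute depth is unknown. Between 11536 and 11723 genes reached 1 FPKM in the upper class and between 11309 and 11436 in the lower class, so these ranges did not overlap. Ribosomal RNA entries took 0.561 to 1.24% of summed FPKM in the upper class and 0.720 to 1.24% in the lower class. Across tested genes, Pearson's r between log2 values of library pairs was 0.976 to 0.997 within the upper class, 0.986 to 0.997 within the lower class and 0.947 to 0.987 between the classes. The first principal component held 59.7% of the variance and separated the classes, and without the microglial, myelin, oligodendrocyte and Schwann lists it held 58.3% and still did.

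Of 11675 genes with at least 1 FPKM in at least 4 of the 11 libraries, 1596 (13.7%) had every upper-class library above every lower-class library, and 615 (5.27%) had the reverse. With a difference of class means of at least 2-fold on the log2(FPKM + 1) scale as well, 171 genes (1.46%) were higher in the upper class and 20 (0.171%) in the lower class. Of the 171, 16 reached 1 FPKM in no lower-class library, so that the filter on low values itself required a difference of them. The 2211 genes without overlap in either direction have the same sign within control, polyP and mutSOD1-ACM by definition, so this adds no evidence. The median difference over all tested genes was 0.00 log2. Without polyP replicate 3, the lowest upper-class library on the first principal component, 1233 genes instead of 615 were higher in the lower class. Apart from the filter on low values, leaving out a library cannot lower such a count, since it cannot create overlap. A rise was therefore built in, and only its size differs between libraries.

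**Figure D1:**
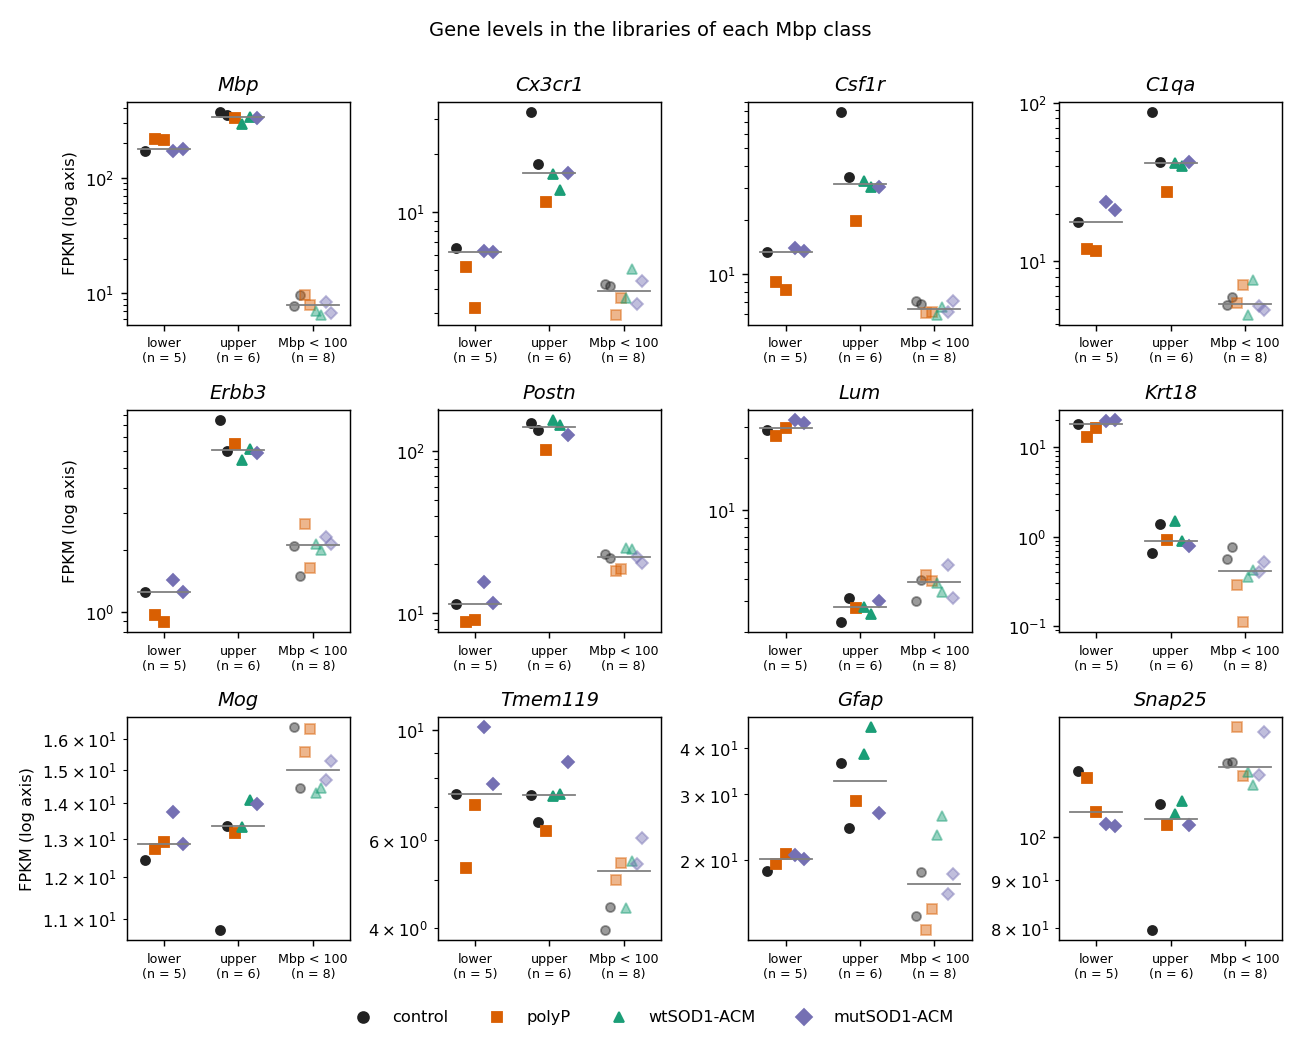
FPKM (log axis) of 12 genes in each library, by Mbp class. Colours and shapes mark the treatment, grey lines the class medians, and the 8 libraries with Mbp below 100 FPKM are drawn paler. Cx3cr1, Csf1r and C1qa separate the classes with the upper class on top, Lum and Krt18 with the lower class on top, and Erbb3 is between the classes in the 8 other libraries.

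Microglial genes were mostly higher in the upper class, with Cx3cr1, Csf1r and the C1q chains among those free of overlap. Of 34 tested genes of a list of core microglial genes, 28 were higher in every upper-class library than in any lower-class library, against 13.7% of all genes, and none was lower throughout. The median difference of the list was 1.13 log2, against 0.00 for all genes, and 22 of the 28 passed 2-fold. The list has 38 genes, of which 36 are in the table. P2ry13 and Fcgr2b were too low to be tested. P2ry12, P2ry6, Ikzf1 and Csf3r passed the filter only through the upper class, so that a difference was built into their selection. Without these 4, 25 of 30 were higher throughout the upper class, against 13.0% of all genes selected likewise, with a median of 1.18 log2, and all 22 that passed 2-fold remained.

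Cx3cr1, the fractalkine receptor, read 11.2, 15.8 and 32.8 FPKM (lowest, median, highest) in the upper class. In the lower class it read 6.51 in the control, 5.19 and 3.20 in the polyP libraries and 6.27 and 6.21 in the mutSOD1-ACM libraries. The classes did not overlap, the ratio of their means was 3.24, and the difference was 1.48 log2 with a within-class SD of 0.44. Csf1r, the receptor that microglia need to survive, ran from 19.6 to 79.4 FPKM with a median of 31.7 in the upper class and from 8.18 to 13.9 FPKM in the lower class. Its class difference was 1.52 log2, again without overlap. C1qa, a chain of the complement starter C1q, ran from 27.3 to 87.9 FPKM (median 41.9) against 11.7 to 23.8 FPKM, and C1qb and C1qc behaved alike with differences of 1.36 and 1.30 log2.

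Trem2 and Tyrobp, a lipid-sensing receptor and its signalling adaptor, differed by 1.33 and 1.23 log2, and Aif1, which codes for the calcium-binding marker Iba1, by 1.25 log2. The largest differences of the list were those of Itgam at 1.54 log2 and Csf1r, followed by Laptm5 at 1.49 log2. P2ry12, the purinergic receptor of resting microglia, was low in both classes, at 1.14 to 4.09 against 0.43 to 0.74 FPKM, and is 1 of the 4 that the filter took only through the upper class. The other 6 tested genes overlapped between the classes, among them genes used as microglial markers. Tmem119 read 6.27, 7.39 and 8.63 FPKM in the upper class and 5.29 to 10.1 FPKM in the lower class, a difference of -0.03 log2 that turned to 0.03 when libraries were scaled to equal summed FPKM. Sall1 and Olfml3, chosen for mention after their values were seen, overlapped too, at 25.0 against 24.8 and 39.1 against 55.8 FPKM (class medians).

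The size of the microglial difference varied with the treatment and with 1 library. The median of the list was 1.49 log2 in control, 0.83 in polyP and 0.87 in mutSOD1-ACM. Control replicate 2 had the highest value of the 11 libraries for 30 of the 34 genes, by a median factor of 1.78 over the next upper-class library. Summed over the list, it reached 1434 FPKM, the other upper-class libraries 558 to 784 FPKM, the lower class 331 to 450 FPKM and the 8 other libraries 262 to 293 FPKM. Without control replicate 2, the number of genes free of overlap was 28 of 34 as before. It could not fall, since leaving out an upper-class library cannot create overlap. Within the upper class polyP replicate 3 had the lowest Cx3cr1, Csf1r and C1qa.

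Promoters of the core microglial genes are shown because most of these genes differed together between the classes of the 11 libraries. Of the 34 genes, 19 had an entry among the RefSeq promoters of the rat assembly GRCr8, read as the 250 bases before the gene start. The letters GAGGAAGT, a strong binding sequence of the macrophage factor PU.1, occurred on either strand in 3 of the 19 (15.8%) and in 2.20% of all 27457 genes of that table. The shorter GAGGAA, which GAGGAAGT contains, occurred in 14 of 19 (73.7%) and in 24.8% of all genes. The 3 genes are Ctss, a lysosomal protease, at chr2:185775146-185775395 (plus strand), Cd53, a leukocyte tetraspanin, at chr2:197087897-197088146 (minus strand), and Fcgr3a, an antibody receptor, at chr13:85782386-85782635 (plus strand). Capitals mark the match, which lies on the opposite strand and so reads ACTTCCTC:
Ctss: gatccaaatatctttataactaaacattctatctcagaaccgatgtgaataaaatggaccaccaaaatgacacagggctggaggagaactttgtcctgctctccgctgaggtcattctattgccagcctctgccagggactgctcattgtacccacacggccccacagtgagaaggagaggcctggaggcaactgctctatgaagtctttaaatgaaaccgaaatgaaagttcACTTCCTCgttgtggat
Cd53: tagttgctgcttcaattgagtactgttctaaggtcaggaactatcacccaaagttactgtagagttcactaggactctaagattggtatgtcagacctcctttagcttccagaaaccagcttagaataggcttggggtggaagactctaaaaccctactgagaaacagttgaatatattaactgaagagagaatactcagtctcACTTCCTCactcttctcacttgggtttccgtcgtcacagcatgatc
Fcgr3a: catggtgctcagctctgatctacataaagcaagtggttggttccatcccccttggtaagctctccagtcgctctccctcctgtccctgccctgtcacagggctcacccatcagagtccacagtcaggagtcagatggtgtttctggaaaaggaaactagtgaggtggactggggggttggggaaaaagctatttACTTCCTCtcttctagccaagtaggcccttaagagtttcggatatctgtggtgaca
The matches lay 17 to 10 bases (Ctss), 46 to 39 bases (Cd53) and 56 to 49 bases (Fcgr3a) before the gene start. Ctss ran from 23.04 to 58.8 FPKM in the upper class and from 9.54 to 15.2 FPKM in the lower class, Cd53 from 8.14 to 24.2 against 4.00 to 6.49 FPKM, and Fcgr3a from 3.36 to 9.90 against 1.75 to 2.24 FPKM. Cx3cr1, Csf1r and C1qa had no match to the longer sequence in their windows. A match is a stretch of letters and was not tested as a binding site.

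Genes of activated microglia followed the core list. Of 14 tested, 10 were higher throughout the upper class (71.4%, against 13.7% of all genes) and none was lower. The median was 1.08 log2 pooled and 1.10, 0.58 and 0.72 log2 within the treatments. Spp1, the secreted phosphoprotein osteopontin, stood at 121, 217 and 334 FPKM (lowest, median, highest) in the upper class and at 20.7 to 34.9 FPKM in the lower class, a difference of 2.88 log2. Its values in the 8 other libraries, 59.2 to 99.3 FPKM, lay between the classes, whereas those of Cx3cr1, 2.95 to 5.09 FPKM, overlapped the lower class. Gpnmb, a lysosomal glycoprotein, ran from 152 to 470 against 72.02 to 118 FPKM. Gpr84, a fatty acid receptor of myeloid cells, ran from 2.72 to 12.8 against 0.60 to 1.99 FPKM. Of complement and lysosome genes 13 of 25 tested were higher throughout (52.0%), with a median of 0.58 log2 pooled and 0.78, 0.47 and 0.44 log2 within the treatments.

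Among markers of other blood-derived cells, those of neutrophils and lymphocytes were low, and those of red cells were mixed. Of 9 erythroid genes in the table, 5 stayed under 1 FPKM in all 11 libraries, and 4 were tested. The alpha globin gene Hba1 ran from 19.8 to 55.1 FPKM in the upper class and from 9.94 to 134 FPKM in the lower class, and the embryonic globin gene Hbe1 from 14.2 to 42.9 against 6.28 to 92.7 FPKM. The classes overlapped for all 4 erythroid genes tested, the highest library of the 11 for both Hba1 and Hbe1 was mutSOD1-ACM replicate 2 of the lower class, and the median difference of 0.52 log2 was 1.32 and 2.06 within control and polyP but -1.23 within mutSOD1-ACM. Of macrophages at the borders of the nervous system, 6 of 12 genes in the table were tested. Of the 6, 3 were higher throughout the upper class (50%, against 13.7% of all genes). The median of the 6 was 0.83 log2 pooled and 1.16, 0.46 and 0.51 log2 within control, polyP and mutSOD1-ACM. Mrc1, the mannose receptor, ran from 4.04 to 17.0 FPKM in the upper class and from 1.39 to 2.81 FPKM in the lower class, and the defining marker Cd163, outside the naming rule, did not pass 0.01 FPKM in any of the 11 libraries. Of 13 neutrophil and lymphocyte genes in the table, 12 stayed under 1 FPKM in all 11 libraries. The exception, Cd4, which rat macrophages also carry, ran from 4.78 to 17.5 against 2.47 to 3.59 FPKM.

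Part of the difference in inflammatory genes came with the wtSOD1-ACM libraries, which are all in the upper class. Of 19 tested target genes of NF-kB, the transcription factor of acute inflammation, 9 were higher throughout the upper class (47.4%, against 13.7% of all genes). Birc3 passed the filter only through that class. Without it, 8 of 18 were higher (44.4%, against 13.0% of all genes selected likewise). The median of the 19 was 0.62 log2 pooled but 0.30, 0.28 and 0.17 log2 within control, polyP and mutSOD1-ACM. Ccl2, a chemokine for monocytes, read 168 and 165 FPKM in the wtSOD1-ACM libraries and 4.74 to 8.10 FPKM in the other upper-class libraries. In the lower class it read 1.79 to 3.33 FPKM. So it did not overlap between classes even among the other treatments, at 0.97, 0.95 and 0.98 log2 within control, polyP and mutSOD1-ACM. Cxcl1, a chemokine for neutrophils, overlapped: outside the 2 wtSOD1-ACM libraries, at 112 and 108 FPKM, it read 1.59 to 3.00 FPKM in the upper class and 2.11 to 3.55 FPKM in the lower class.

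**Figure D2:**
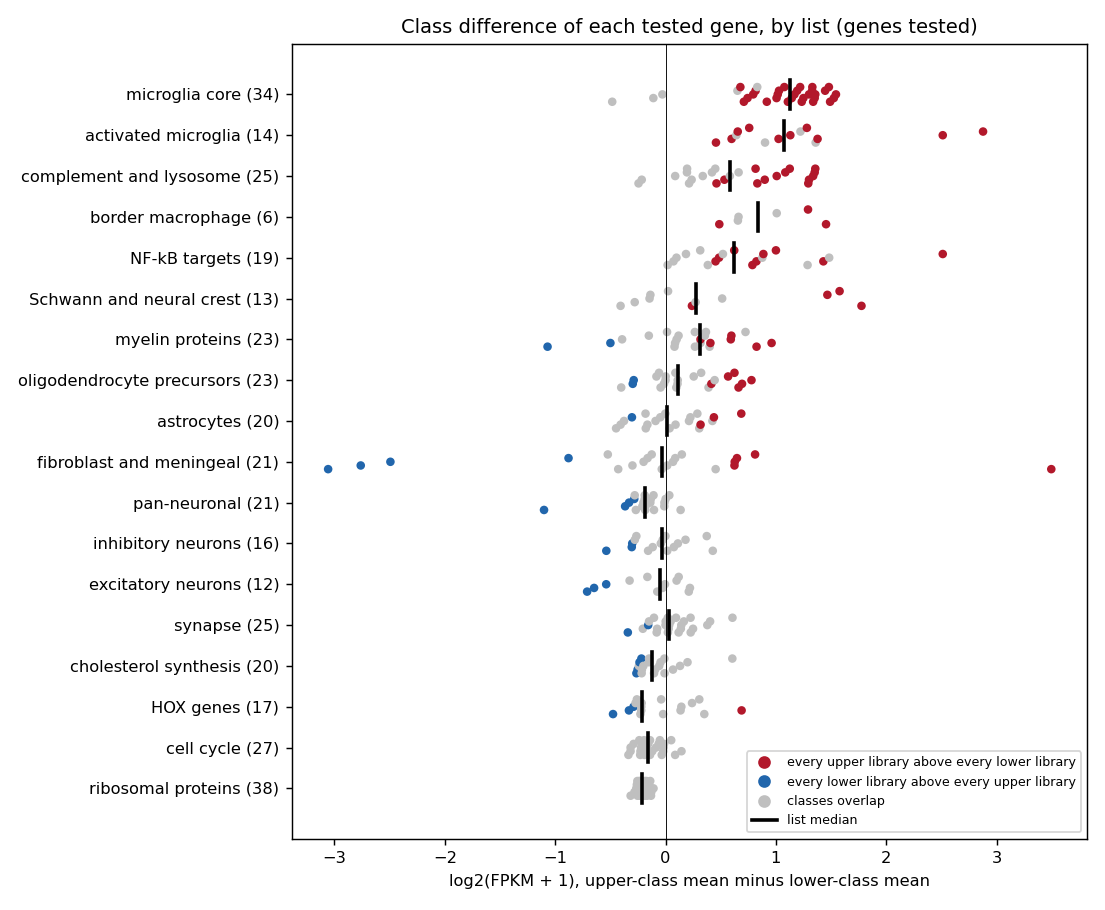
Difference of class means, in log2(FPKM + 1), for the tested genes of 18 lists, with their number in brackets and items not reported here left undrawn. Red points are genes whose upper-class libraries all lie above the lower-class libraries, blue points the reverse, grey points overlap, and black bars are list medians. Most points of the microglial lists lie to the right of 0, while the fibroblast list has members at both ends.

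The myelin proteins differed less than the microglial genes and not as a block. Of 23 tested genes, 7 were higher throughout the upper class (30.4%, against 13.7% of all genes), Mbp itself included, and 2 were lower throughout (8.7%, against 5.27%). The median was 0.32 log2 pooled and 0.46, 0.17 and 0.30 log2 within the treatments. None of the 7 reached 2-fold on the log2(FPKM + 1) scale. Mag, a glycoprotein of the innermost myelin layer, ran from 18.8 to 30.6 FPKM against 10.4 to 12.7 FPKM, a difference of 0.96 log2, which exceeds that of Mbp at 0.82 log2. Mog, a protein of the outermost layer, was nearly level at 10.8 to 14.1 against 12.5 to 13.7 FPKM, and read 14.3 to 16.4 FPKM in the 8 libraries where Mbp was low. Aspa, an enzyme that breaks down N-acetylaspartate in oligodendrocytes, went the other way, with 3.01 to 5.33 FPKM in the upper class and 6.48 to 10.7 FPKM in the lower class. Of 29 myelin genes in the table, 5 stayed under 1 FPKM in all 11 libraries.

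The promoter of Mag is shown because it holds a match to the letters of the myelin regulatory factor MYRF. Mag also had the largest difference of the list towards the upper class. The largest towards the lower class was -1.07 log2, and Aspa, lower throughout the upper class, had no match in its window. CTGGCAC or CTGGTAC occurred on either strand within the 250 bases before the start of 3 of 14 myelin genes with an entry (21.4%), in Mag, Cnp and Cldn11, in 2 of the 19 microglial genes (10.5%) and in 5.91% of all genes. The Mag window lies at chr1:95291045-95291294 (minus strand) in GRCr8, and its match, in capitals, is 94 to 88 bases before the start:
Mag: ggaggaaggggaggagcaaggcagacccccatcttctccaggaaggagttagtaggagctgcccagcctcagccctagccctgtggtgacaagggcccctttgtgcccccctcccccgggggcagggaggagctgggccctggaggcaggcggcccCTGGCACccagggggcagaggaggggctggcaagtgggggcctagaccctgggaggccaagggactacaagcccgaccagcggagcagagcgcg
Cldn11, a tight junction protein of myelin, was higher throughout the upper class as well, at 14.2 to 19.9 against 9.35 to 11.4 FPKM, while Cnp, an enzyme of uncompacted myelin, overlapped at 123 to 162 against 90.5 to 148 FPKM.

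Oligodendrocyte precursor genes were divided likewise. Of 23 tested, 6 were higher throughout the upper class (26.1%, against 13.7% of all genes) and 2 lower (8.7%, against 5.27%). The median was 0.11 log2 pooled, 0.42 log2 within control, and 0.12 and 0.09 log2 within polyP and mutSOD1-ACM. Sox10, a transcription factor of both oligodendrocytes and Schwann cells, ran from 53.0 to 70.7 FPKM (median 61.3) in the upper class and from 25.5 to 43.9 FPKM in the lower class. Pdgfra, the receptor that drives precursor division, ran from 23.6 to 32.7 against 15.0 to 21.5 FPKM, and Cspg4 from 7.77 to 14.3 against 5.21 to 6.50 FPKM. Olig2, a lineage factor that Sox10 follows in development, overlapped fully at 24.8 to 45.6 against 23.5 to 42.3 FPKM. Within polyP, Sox10 was also split, with 70.7 FPKM in the upper-class library and 43.9 and 43.4 FPKM in the lower-class libraries.

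Genes of Schwann cells and the neural crest were partly higher in the upper class, with Erbb3 and Ngfr among those free of overlap. Of 13 tested, 6 were higher throughout the upper class (46.2%, against 13.7% of all genes), with a median of 0.27 log2 pooled and 0.31, 0.20 and 0.37 log2 within the treatments. One of the 6, Cdh19, passed the filter only through the upper class, and without it 5 of 12 were higher, against 13.0% of all genes selected likewise, with a median of 0.26 log2. Erbb3, the neuregulin receptor of Schwann cells, ran from 5.44 to 8.53 FPKM against 0.89 to 1.42 FPKM, and Ngfr, the low-affinity neurotrophin receptor, from 15.9 to 21.8 against 5.23 to 7.62 FPKM. Cdh19, a cadherin of the neural crest lineage, read 1.89 to 2.43 FPKM against 0.02 to 0.06 FPKM. In the 8 other libraries these genes lay between the classes, with up to 2.66 FPKM of Erbb3, 0.35 to 0.61 FPKM of Cdh19 and 9.96 to 14.8 FPKM of Ngfr. Pmp22 and Prx, a membrane and a cytoskeletal protein of peripheral myelin named after their values were seen, overlapped at 67.3 to 108 against 96.2 to 111 FPKM and 4.31 to 6.19 against 4.28 to 5.81 FPKM. S100b, which Schwann cells share with astrocytes, was 12.9 to 18.7 against 17.3 to 24.3 FPKM.

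Other genes with the largest differences towards the upper class follow. Gldn, gliomedin, which gathers sodium channels at peripheral nodes, ran from 38.9 to 59.8 FPKM against 1.09 to 3.67 FPKM. Lgi4, a secreted protein required for peripheral myelination, ran from 3.13 to 4.22 against 0.14 to 0.26 FPKM, and Fxyd1, a regulator of the sodium pump, from 6.74 to 7.67 against 0.40 to 1.02 FPKM. Fgf5, a fibroblast growth factor, S100a4, a calcium-binding protein, Olfml2a, an olfactomedin-like matrix protein, and Pcdh20, a protocadherin, differed by 2.70, 2.47, 2.13 and 1.83 log2. Lgi4 and Fgf5 reached 1 FPKM in no lower-class library, so the filter required a difference of them. One further gene, carried only as an identifier, ranked among them.

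The 12 genes with the largest differences towards the lower class were of several kinds, among them keratins, matrix proteoglycans, a growth factor and a neuropeptide. Krt18 and Krt8, the paired keratins of simple epithelia, ran from 12.9 to 20.4 and 14.0 to 18.0 FPKM in the lower class and from 0.65 to 1.51 and 0.65 to 1.32 FPKM in the upper class. Lum, the collagen-binding proteoglycan lumican, read 28.9 in the control, 26.7 and 29.8 in the polyP and 33.2 and 31.8 FPKM in the mutSOD1-ACM libraries of the lower class. The upper class read 2.26 to 3.10 FPKM, an 11.0-fold lower mean. Dcn, its relative decorin, ran from 23.2 to 29.7 FPKM against 3.52 to 4.49 FPKM. Igf2, a fetal growth factor, and H19, the noncoding RNA of the same imprinted locus, ran from 128 to 156 and 229 to 297 FPKM in the lower class and from 13.4 to 26.3 and 32.7 to 67.5 FPKM in the upper class.

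For these genes the 8 libraries with little Mbp were near the upper class, with 0.11 to 0.76 FPKM of Krt18, 3.00 to 4.82 FPKM of Lum and 14.9 to 30.0 FPKM of Igf2. The neuropeptide gene Npvf was different, at 69.0 to 101 FPKM in the lower class, 10.6 to 28.1 FPKM in the upper class and 54.5 to 81.6 FPKM in the 8 others. Cytl1, a secreted cytokine-like protein, Serpinf1, a serpin, Sfrp2, a secreted Wnt antagonist, Kcne5, a potassium channel subunit, and Pmp2, a fatty acid binding protein of peripheral myelin, differed by -1.82, -1.49, -1.44, -1.33 and -1.27 log2.

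Fibroblast and meningeal genes fell on both sides. Of 21 tested, 5 were higher throughout the upper class (23.8%, against 13.7% of all genes) and 4 throughout the lower class (19.0%, against 5.27%). The median of -0.03 log2 turned to 0.01 at equal summed FPKM, and was 0.01, 0.03 and -0.03 log2 within the treatments. Postn, the matrix protein periostin, ran from 102 to 157 FPKM (median 140) in the upper class and from 8.76 to 15.5 FPKM in the lower class, so it was opposite to Lum and Dcn. Aldh1a2, the retinoic acid synthesis enzyme of meninges and of motor neurons, was 2.55 to 3.86 against 1.07 to 1.64 FPKM. Col1a2, a chain of collagen I, ran from 123 to 194 FPKM in the upper class and from 221 to 342 FPKM in the lower class.

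**Figure D3:**
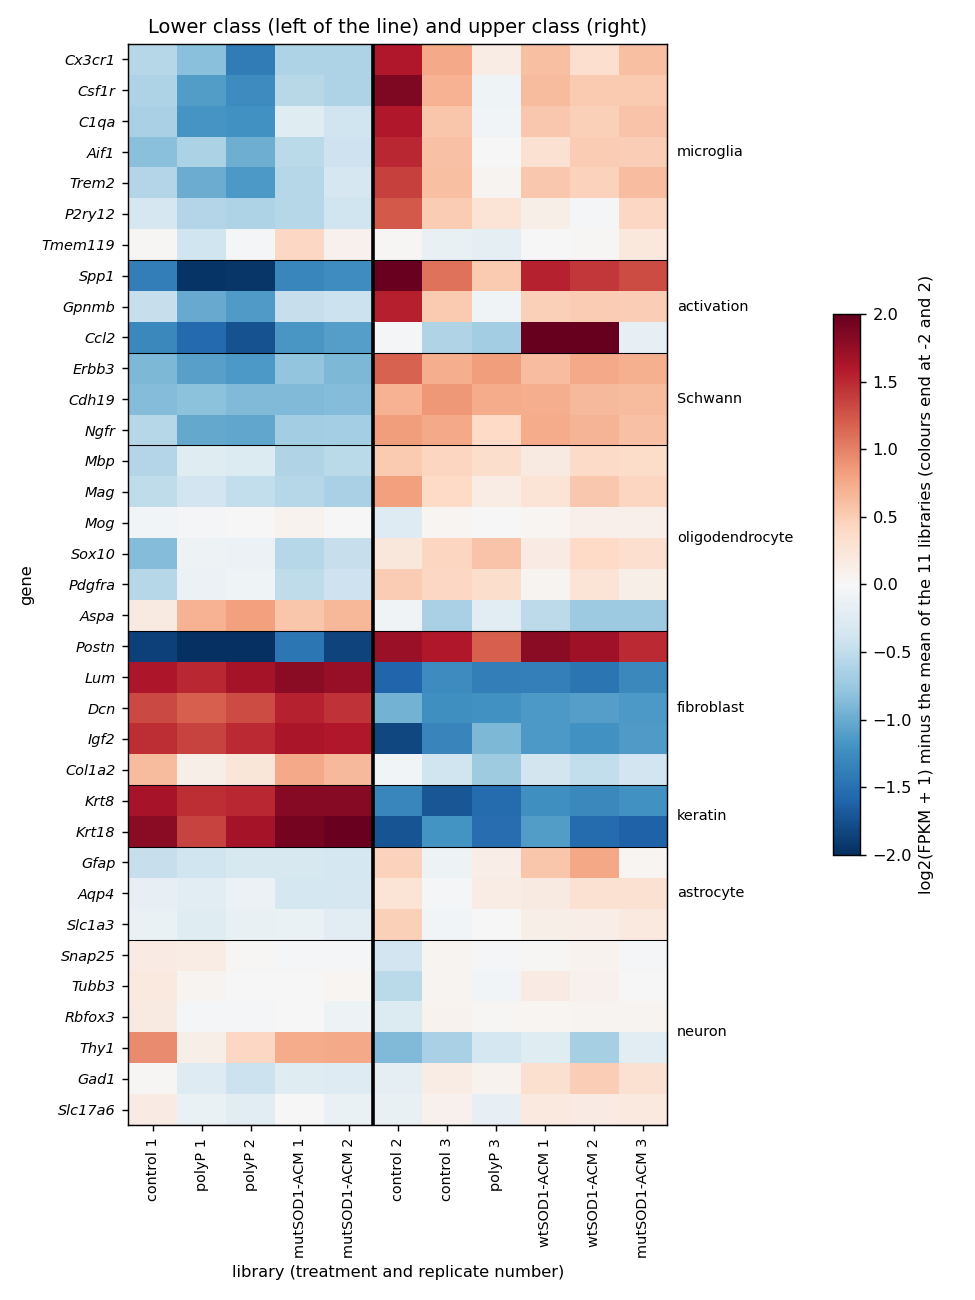
Level of 35 genes in the 11 libraries, as log2(FPKM + 1) minus the gene's mean over the 11. The colour scale ends at -2 and 2, and the vertical line parts the lower class (left) from the upper class (right). Microglial genes other than Tmem119 and Schwann genes are red to the right, Lum, Dcn, Igf2 and the keratins red to the left, control replicate 2 is darkest for the other microglial genes, and Ccl2 is darkest in both wtSOD1-ACM libraries.

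Astrocyte genes hardly differed. Of 20 tested, 3 were higher throughout the upper class (15.0%) and 1 lower (5.0%), shares near the 13.7% and 5.27% of all genes. Within all 3 treatments 6 of the 20 were higher and 6 lower, against 4169 and 3380 of all 11675 tested genes. The median of 0.02 log2, at 0.01, 0.06 and 0.02 log2 within the treatments, turned to -0.02 with quantile normalization and to -0.00 with median-of-ratios scaling. Gfap, the intermediate filament of astrocytes, ran from 24.3 to 45.5 FPKM (median 32.6) in the upper class and from 18.6 to 20.7 FPKM in the lower class, without overlap. The highest Gfap values, 38.6 and 45.5 FPKM, were in the wtSOD1-ACM libraries, and the within-treatment differences were 0.65, 0.50 and 0.38 log2. The water channel gene Aqp4 ran from 12.5 to 15.9 against 9.70 to 11.5 FPKM, and the glutamate transporter gene Slc1a3 from 225 to 327 against 199 to 215 FPKM. Glul, glutamine synthetase, S100b and Acsbg1, an acyl-CoA synthetase, had the opposite sign, at -0.45, -0.41 and -0.38 log2, and their classes overlapped.

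Neuronal genes were close to level or slightly lower in the upper class. Of 21 genes found in most neurons, none was higher throughout the upper class and 4 were lower (19.0%, against 5.27% of all genes). The median was -0.18 log2 pooled, -0.44 log2 within control, which includes control replicate 2, and -0.15 and -0.05 log2 within polyP and mutSOD1-ACM. Snap25, a membrane fusion protein of synaptic vesicles, read 79.6, 105 and 109 FPKM in the upper class and 103 to 118 FPKM in the lower class. Tubb3, the neuronal tubulin, read 361, 536 and 585 against 523 to 602 FPKM, and Rbfox3, the nuclear antigen NeuN, 28.0, 34.99 and 35.6 against 31.7 to 38.3 FPKM. These genes overlapped, and control replicate 2 was the lowest upper-class library for each. The 4 without overlap were Thy1, Stmn3, Vsnl1 and Ina. Thy1, a surface glycoprotein of neurons and of some fibroblasts, read 3.21 to 5.68 FPKM against 7.41 to 14.0 FPKM, while Stmn3, a tubulin-binding stathmin, Vsnl1, a calcium sensor, and Ina, a neurofilament protein, differed by -0.37, -0.33 and -0.28 log2. Summed over the list, control replicate 2 reached 2083 FPKM, while the median of the upper class was 2994 FPKM and that of the lower class 3164 FPKM.

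Transmitter genes followed no single direction. Gad1, the enzyme that makes GABA, and Slc17a6, a vesicular glutamate transporter, overlapped between classes at 33.9 to 54.8 against 28.4 to 39.2 FPKM and 22.9 to 29.6 against 21.9 to 28.9 FPKM. Of 16 inhibitory and 12 excitatory neuron genes tested, 3 each were higher throughout the lower class (18.8% and 25.0%, against 5.27% of all genes) and none was higher throughout the upper class. The peptide genes Npy, Tac1 and Cck were among the 6. Npy ran from 72.7 to 108 FPKM in the lower class against 43.4 to 65.3 FPKM in the upper class. Tac1 ran, in that order, from 53.2 to 79.9 against 26.7 to 49.5 FPKM. Cck ran from 27.5 to 41.0 against 17.1 to 24.6 FPKM, again with the lower class first. Of 30 tested genes of receptors and channels, 3 were higher throughout the upper class and none throughout the lower class, and the 10.0% lies under the 13.7% of all genes. The motor neuron markers Mnx1 and Isl1 did not pass 0.07 and 0.45 FPKM. Chat, the acetylcholine enzyme, ran from 0.49 to 0.77 FPKM in the upper class and from 0.34 to 0.51 FPKM in the lower class. These defining genes were thus near 0 in both classes of a culture taken from ventral cord. The motor neuron list as a whole was not near 0. Of its 9 tested genes, 2 were higher throughout the upper class (22.2%, against 13.7% of all genes) and none was lower. The median was 0.05 log2 pooled and -0.01, 0.05 and 0.12 log2 within control, polyP and mutSOD1-ACM. Summed over the list the classes overlapped, at 71.36 to 96.85 FPKM in the upper class and 70.03 to 83.85 FPKM in the lower class.

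The treatments were then compared among the 11 libraries with the class as a term in one limma fit on log2(FPKM + 1), since the rule on Mbp did not use the treatment. The class itself is a measured outcome of the same cultures. For polyP against control (3 libraries each), 2448 genes (21.0%) rose and 1351 (11.6%) fell, 32.5% in all. Without the class term 1836 rose and 653 fell, and all 2489 of these calls were also made with it. With libraries rescaled the balance changed, to 1886 and 1436 with quantile normalization, 1680 and 1783 with median-of-ratios scaling and 1275 and 1976 at equal summed FPKM. The rises include Fabp7, which binds fatty acids in radial glia, from 976 ± 201 to 1940 ± 277 FPKM (SD, n = 3 each; adjusted p = 0.00017), Hmgb2, a chromatin protein of dividing cells, the small GTPase gene Rasl2-9, Tsen34l1 and Tnnc1, a calcium sensor of muscle. Flnc, a filamin, fell by 1.17 log2 (SE 0.06), Ptgs2, the inducible prostaglandin synthase, fell by 1.23 log2 (SE 0.09), and Egr1, an immediate early factor, fell by 1.05 log2 (SE 0.10), with limma adjusted p of 1.4e-05, 0.00015 and 0.0004. Entries for the miRNA genes Mir29b2 and Mir125b1, which poly(A) libraries cover only through longer transcripts, were listed at 0 in all 3 polyP libraries, and Mir1896 was lower as well.

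Calls among microglial genes changed with the class term, as did calls over all genes. With it, 17 of the 34 core genes fell with polyP against 11.6% of all genes, 1 (Sall1) rose, and the median was -0.65 log2. Without it, none was called lower although the median was -1.004 log2. Other lists moved too: with and without the class term, 16 and 2 of 25 complement and lysosome genes, 8 and 1 of 14 genes of activated microglia, 7 and 2 of 21 fibroblast and meningeal genes and 7 and 3 of 25 synapse genes fell. Side by side, Cx3cr1 read 6.51 FPKM in the lower-class control and 5.19 and 3.20 FPKM in the lower-class polyP libraries, and 32.8 and 17.7 FPKM in the upper-class controls and 11.2 FPKM in the upper-class polyP library. The polyP library or libraries were thus below the controls in each class, while the 3 controls and 3 polyP libraries overlapped when the class was ignored. The difference was -0.83 log2 (SE 0.23, limma adjusted p = 0.0257) with the class and -1.30 log2 (adjusted p = 0.116) without it. C1qa gave -0.90 log2 (adjusted p = 0.0294) with and -1.32 log2 (adjusted p = 0.0893) without the class. Aif1 did not pass with the class, at -0.55 log2 (adjusted p = 0.163).

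The microglial count depends on single libraries. It was 0 without polyP replicate 3, 1 without polyP replicate 2, 9 without polyP replicate 1 and 26 without control replicate 3. Without control replicate 2 it was 22. The counts over all genes moved too, to 690 rises and 491 falls without control replicate 1, 1209 and 624 without polyP replicate 2, and 995 and 729 without polyP replicate 3, and the falls to 803 without polyP replicate 1. Ccl2 fell by 0.37 log2 (limma adjusted p = 0.0411), a call that was lost without the class term, at -0.69 log2 (adjusted p = 0.194). Mbp made the class term, so its differences, 0.11 log2 with that term and -0.18 log2 without it, are given with no test.

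**Figure D4:**
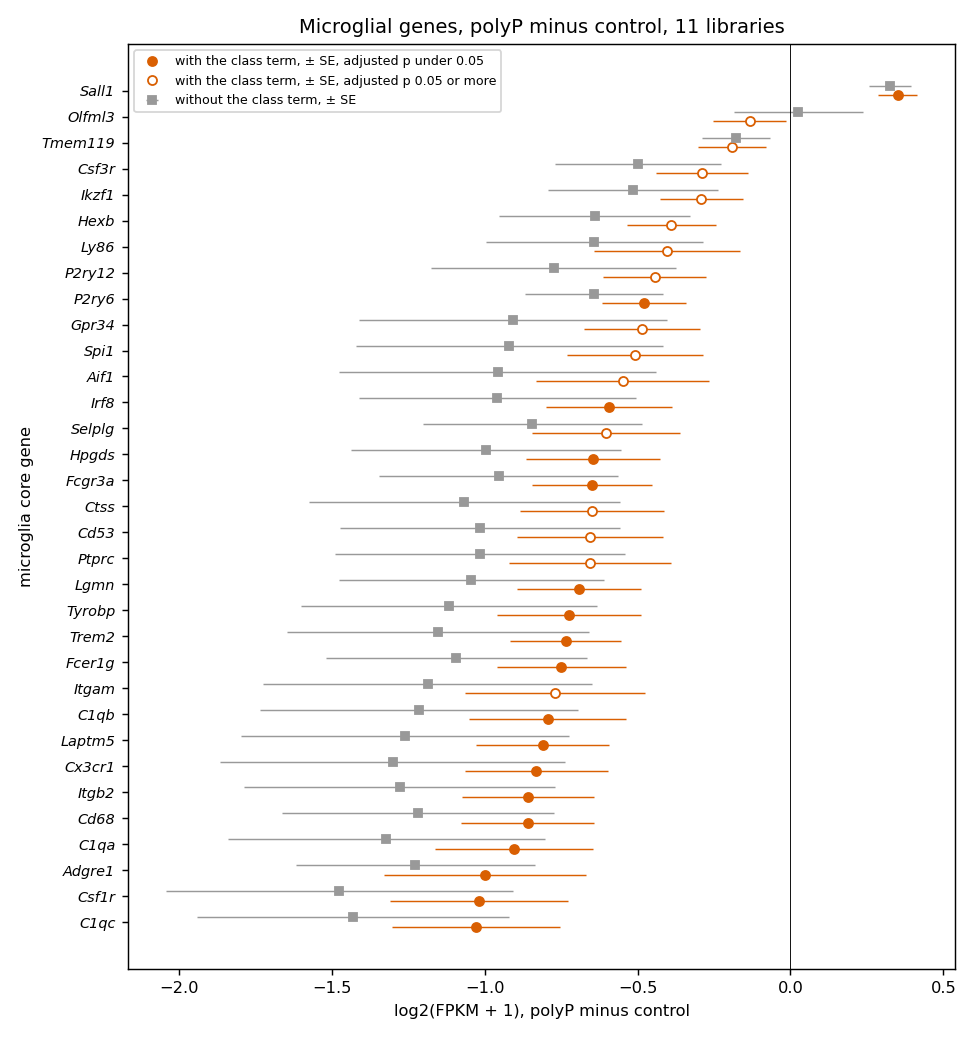
Difference between polyP and control for 33 of the 34 core microglial genes, in log2(FPKM + 1) with standard errors, from fits with the class term (orange, filled where the adjusted p is under 0.05) and without it (grey). With the class term 17 genes are called lower and Sall1 higher. For Olfml3, Tmem119 and Sall1 the difference is larger with the class term than without it, and for the other genes drawn it is smaller.

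Medium from mutant SOD1 astrocytes gave no called gene against control (limma, 3 libraries each, 0% of 11675), with 713 genes at an unadjusted p under 0.05. Without the class term there was none either, and with a pseudocount of 0.1 there were 3. Without control replicate 2 there were 4. Cx3cr1, C1qa, Aif1, Ccl2 and Egr1 differed by -0.34, -0.11, -0.17, 0.15 and 0.02 log2, with limma adjusted p between 0.817 and 0.971. Of these, the Ccl2 difference was -0.17 log2 without the class term. Mbp, again with no test, differed by -0.09 log2 with the class term and by -0.38 log2 without it.

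Medium from wild-type SOD1 astrocytes gave 109 rises (0.934%) and 24 falls (0.206%) against control, from 2 libraries against 3, and without the class term 47 and 3. Of the NF-kB targets, 17 of 19 rose with the class term and 12 of 19 without it. Cxcl1, Ccl2, Il1b, an inflammatory cytokine, Ccl20, a chemokine, and Icam1, an adhesion protein, rose most, by 5.04, 4.49, 2.86, 2.41 and 2.15 log2. Icam1, for instance, stood at 99.9 ± 1.02 FPKM (SD, n = 2) against 20.8 ± 8.04 FPKM (SD, n = 3; limma adjusted p = 0.00018). Among the falls were Mir1896, the G protein gene Gna15, the Notch target Hes5, and Trib3 and Sesn2, which belong to stress signalling. Without the class term, Mir1896 and Sesn2 were still called (limma adjusted p = 0.0263 and 0.0337), and Gna15, Hes5 and Trib3 were not (adjusted p = 0.934, 0.197 and 0.0884). Both wtSOD1-ACM libraries are in the upper class, so the class term rests on the other treatments, and Cx3cr1 differed by -0.61 log2 (adjusted p = 0.334) with it and by -0.14 log2 (adjusted p = 0.996) without it. Against wtSOD1-ACM, mutSOD1-ACM gave 2 rises (0.0171%), among them Hist1h2ail1, and 63 falls (0.540%), 0.557% in all, with Cxcl1, Ccl2, Ccl20, Icam1 and Gbp5, an interferon-induced GTPase, falling most and 14 of 19 NF-kB targets among the falls. These contrasts share the control or the wtSOD1-ACM libraries. The counts against control were 44 and 3 without wtSOD1-ACM replicate 1, 53 and 4 without replicate 2 and 591 and 405 without control replicate 3, and the falls were 11 to 15 without polyP replicate 2 or any 1 mutSOD1-ACM library. Between the media, the counts were 25 and 107 without control replicate 2, while the falls were 24 without either wtSOD1-ACM library and 18 without mutSOD1-ACM replicate 3.

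Whether a treatment acted differently in the classes was tested as an interaction. For polyP and for mutSOD1-ACM against control, limma called no gene, with 857 and 758 genes at an unadjusted p under 0.05, from 1 or 2 libraries per treatment and class. Cx3cr1 had an interaction of -0.48 log2 (SE 0.47, adjusted p = 0.916) for polyP and of -0.52 log2 (SE 0.47, adjusted p = 0.863) for mutSOD1-ACM, and Aif1 of -1.06 log2 (SE 0.45, adjusted p = 0.656) and -0.92 log2 (SE 0.45, adjusted p = 0.790). C1qa and Csf1r did not pass, with adjusted p between 0.794 and 0.886. Control replicate 2 and control replicate 3 decide these counts: without replicate 3, 1371 genes were called for polyP and 1722 for mutSOD1-ACM, and without replicate 2, 357 and 21.

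Whether microglial genes go along with Mbp elsewhere was asked in the 8 libraries that the rule set aside for Mbp below 100 FPKM. Their Mbp spanned only 6.54 to 9.62 FPKM over 4 treatments. So narrow a range cannot show how these genes go with Mbp at the levels of the classes. Over the 8 libraries, Mbp and Cx3cr1 had a Pearson's r of -0.62 (exact permutation p = 0.106, adjusted over 4 genes 0.425). Spearman's rho was -0.71 (exact permutation p = 0.0576, adjusted 0.230). The relation did not pass the test. Its sign is opposite to that of the classes, but the narrow range bars a conclusion from that. For C1qa, Csf1r and Aif1 the r was -0.07, -0.18 and -0.06, with exact permutation p of 0.878, 0.655 and 0.878 and adjusted p of 0.878 each. Spearman's rho was 0.12, -0.21 and -0.05, with adjusted p of 0.935 each. Without the 2 libraries farthest from the median, polyP replicate 4 and control replicate 5, the r was -0.75, -0.13, -0.27 and -0.47 for Cx3cr1, C1qa, Csf1r and Aif1. Within the 4 treatments, each with 2 such libraries, the library with more Mbp had more Cx3cr1 in 0, more C1qa in 2, more Csf1r in 0 and more Aif1 in 1.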

How the data were processed

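Poly(A)-enriched RNA libraries were deposited by the authors as one table of FPKM for 15597 genes and 19 libraries, per the file headers. The submitters' processing notes name HISAT, an aligner, and rn6, a rat genome build. Its version, the tool behind the FPKM and the gene annotation: not given in the sources used here. No count model was applied to FPKM. Values were used as log2(FPKM + 1), which understates the change of low genes, for 11675 genes at 1 FPKM or more in at least 4 of the 11 libraries. The 11 libraries were divided at 250 FPKM of Mbp. Relative depth came from 76 rarely detected genes whose values came within 0.1 fragment of a whole number in 96.1% of cases, in a fit to the same genes.

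Treatments were compared with limma 3.58.1 (trend and robust moderation, statmod 1.5.0) in R 4.3.3, with group and class as terms, two-sided, Benjamini-Hochberg adjusted over all tested genes at 0.05. Permutation tests used scipy 1.17.1. The limma step was tested on simulated data. Libraries were treated as separate cultures, as the labels state, and p-values measure only the spread between them. The fits did not pair libraries by replicate number, and whether the numbers mark pairs was not settled.

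The members and the 36 gene lists were chosen with earlier results of these data known. Named genes are the 12 largest differences without overlap in each direction, up to 6 per list, markers fixed with the lists, and per treatment contrast up to 5 called genes each way plus Mbp, Cx3cr1, C1qa, Aif1, Egr1 and Ccl2. Promoters are RefSeq entries for GRCr8, a build other than that of the files, so they were matched by gene only. Some items these rules select are not reported here. Alternatives were other pseudocounts, filters, scalings, terms and each library left out.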

Additional observations from a re-analysis of the deposited data

Results flagged for a closer look

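Within the upper class, control replicate 2 stood apart from the other 5 libraries in 16 of the 59 genes and lists that were examined in each class. What marks each value here is a gap to the nearest library, divided by the range of the class, above Dixon's 95% critical value, which chance passes in about 1 of 20 groups. Its microglial values were the highest of the class: Cx3cr1 at 32.79, Csf1r at 79.37, P2ry12 at 4.09, Aif1 at 57.26, C1qa at 87.88, C1qb at 98.42 and C1qc at 88.15 FPKM. Tyrobp at 92.7, Trem2 at 39.33 and the macrophage receptor Mrc1 at 17.01 FPKM were as well, and the core microglial list summed to 1434.35 FPKM. Its neuronal values were the lowest of the class: Snap25 at 79.59, Tubb3 at 360.61 and Rbfox3 at 27.95 FPKM, with the genes found in most neurons summing to 2082.85 FPKM. The myelin gene Mog, at 10.75 FPKM, was lowest there too. These genes come from 1 library and are not separate observations.

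PolyP replicate 3 had the highest H19 of the upper class, at 67.54 FPKM, on the side of the lower class. In the lower class, control replicate 1 had the highest Tubb3, at 602.18 FPKM.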

How the results depend on the processing

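Leaving out polyP replicate 3 gave 1233 genes lower throughout the upper class instead of 615, and the other omissions from 638 upwards. A rise was built in, since leaving out a library cannot create overlap. Median-of-ratios scaling gave 969 and equal summed FPKM 378. A pseudocount of 0.1 gave 292 genes higher and 43 lower at 2-fold without overlap, and 1 rise and 2 falls for mutSOD1-ACM against control. The median of the core microglial list stayed between 0.93 and 1.32 log2 under every alternative run. With no filter there was 1 rise of mutSOD1-ACM over wtSOD1-ACM, 11 microglial falls with polyP, and interactions with 11 higher and 2 lower genes for polyP and 11 higher for mutSOD1-ACM.

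Without the class term, polyP gave 653 falls and 0 microglial falls, wtSOD1-ACM 47 rises and 3 falls, and mutSOD1-ACM against wtSOD1-ACM 39 falls. Signs then turned for Mbp with polyP (-0.18 log2), Ccl2 with mutSOD1-ACM (-0.17), Mbp and C1qa with wtSOD1-ACM (0.16 and 0.0013), and Mbp, Cx3cr1, C1qa and Aif1 between the media (-0.54, -0.67, -0.53 and -0.56). Mbp made the class term, so its values here and below carry no test, and none of the other differences had passed. Egr1 with mutSOD1-ACM turned to -0.021 with quantile normalization and to -0.0089 at equal summed FPKM, which also gave 1275 rises for polyP. The cause of these changes was not tested.

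Whether replicate numbers pair the libraries was not settled. Of 15 pairs that share a number, 10 had deviations correlated above 0.1 (range -0.51 to 0.80), and 5 of 11 libraries matched their own number best. The deviations were taken from treatment means and so include the class. In control, polyP and mutSOD1-ACM, replicate 1 is in the lower class and replicate 3 in the upper class, so this check cannot separate number from class. With class and replicate block, from 4 residual degrees of freedom, polyP gave 1950 rises and 1167 falls and mutSOD1-ACM 2 falls. For wtSOD1-ACM there were 1773 rises and 1253 falls, against 109 and 24 in the main fit. Between the media there were 722 rises and 954 falls, against 2 and 63. C1qa, Aif1 and Egr1 with mutSOD1-ACM turned to 0.21, 0.13 and -0.028 log2. The replicate block without the class gave 39 falls for wtSOD1-ACM, 114 rises and 110 falls between the media, and 0 microglial falls with polyP. All 19 libraries with 3 levels of Mbp gave 4121 rises and 2510 falls for polyP, 3 and 2 for mutSOD1-ACM, 179 and 60 for wtSOD1-ACM, and 13 and 106 between the media.

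With 1 library left out, rises and falls ran from 690 to 3392 and 491 to 2015 for polyP, 0 to 2 and 0 to 2 for mutSOD1-ACM, 44 to 591 and 3 to 405 for wtSOD1-ACM, and 1 to 25 and 18 to 107 between the media. Interactions ran from 0 to 845 and 0 to 526 for polyP and 0 to 1057 and 0 to 665 for mutSOD1-ACM, and microglial falls from 0 to 26. Differences that changed sign were Mbp with polyP (-0.024 to 0.28 log2), Egr1, C1qa and Aif1 with mutSOD1-ACM (-0.045 to 0.21, -0.43 to 0.19 and -0.61 to 0.14), C1qa and Aif1 with wtSOD1-ACM (-0.65 to 0.013 and -0.65 to 0.0057), and Mbp and Egr1 between the media (-0.056 to 0.14 and -0.24 to 0.051). Where 1 library of an arm was left, it was assumed to vary like the rest. Over the 8 libraries the r ran from -0.26 to 0.43 for C1qa, -0.43 to 0.042 for Csf1r and -0.44 to 0.075 for Aif1. Absolute depth is unknown, so counting error could not be given, and 1 or 2 libraries per treatment and class limit every class-specific value.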

Other observations

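Of 10 tested genes for factors and receptors that microglia depend on, 2 were higher throughout the upper class (20.0%, against 13.7% of all tested genes), Csf1r, itself on the core microglial list, and Nrros, which presents TGF-beta. The 10 differences ran from 0.01 to 1.52 log2 with a median of 0.21 log2. Csf1, the ligand of Csf1r, read 17.4, 27.3 and 53.7 FPKM (lowest, median, highest) in the upper class and 25.8 to 30.1 FPKM in the lower class. The wtSOD1-ACM libraries, at 53.7 and 51.0 FPKM, were its highest, and the other upper-class libraries read 17.4 to 32.6 FPKM. Its difference was 0.10 log2 pooled but -0.14, -0.34 and -0.43 log2 within control, polyP and mutSOD1-ACM. Il34, the other ligand of that receptor, stayed between 0.24 and 0.66 FPKM in the 11 libraries.

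Of 17 tested HOX genes, which mark position along the body axis, 1 was higher throughout the upper class (5.88%, against 13.7% of all genes) and 3 throughout the lower class (17.6%, against 5.27%). The median was -0.22 log2 pooled and -0.26, -0.08 and -0.07 log2 within control, polyP and mutSOD1-ACM. Summed over the list the classes did not overlap, at 602 to 807 FPKM in the upper class and 828 to 899 FPKM in the lower class. Hoxd4, a gene of anterior spinal levels, ran from 5.27 to 6.96 FPKM in the upper class and from 2.38 to 4.93 FPKM in the lower class. Hoxc8, a gene of more posterior levels, ran from 44.6 to 66.5 against 74.5 to 96.6 FPKM. Both were named after their values were seen. None of 38 ribosomal protein genes and none of 27 cell cycle genes was free of overlap, with pooled medians of -0.21 and -0.16 log2. Within control, polyP and mutSOD1-ACM the ribosomal median was -0.11, -0.17 and -0.16 log2. The cell cycle median was 0.14, -0.06 and -0.14 log2, so its sign did not hold within control. With polyP and the class term, all 38 and 24 of the 27 rose (limma, against 21.0% of all genes).

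Genes linked to amyotrophic lateral sclerosis were mixed: of 19 tested, 4 were higher throughout the upper class (21.1%, against 13.7% of all genes) and 1 lower (5.26%, against 5.27%). The 1 was Sod1, the rat copy of the antioxidant enzyme, at 169 to 207 against 214 to 258 FPKM. Tbk1, a kinase of innate immunity and autophagy, ran from 12.2 to 13.5 against 8.37 to 9.29 FPKM.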
